A study of Mus musculus with 7 samples.

Results

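DNase I unique intergenic regions of mouse liver are stretches of chromatin between genes that were listed as accessible to DNase I and to neither Benzonase nor Cyanase. Hotspots of the 3 nucleases, each hotspot being a stretch with a local excess of sequenced tags, were merged wherever they overlapped by 1 bp or more, which gave 90879 regions on chromosomes 1 to 19. Of the 37212 regions that were intergenic, 12203 (32.8%) held a DNase I hotspot alone and are described here. Intergenic means more than 1 kb from every transcriptional start site (TSS) of a protein-coding transcript and outside every protein-coding transcript body. The regions were thus selected on the presence and absence of hotspots and on gene annotation, so their number, their place and the missing Benzonase and Cyanase hotspots are a description and not a finding.

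The livers came from male C57BL/6 mice that were 8 weeks old. Benzonase and Cyanase, a pair of endonucleases that stay active in high detergent, were applied to pulverized intact frozen liver at 0.25, 1 and 4 U (3 samples per nuclease), and DNase I to nuclei purified from fresh liver (1 sample in the labels, while the study describes the DNase I tags as combined from replicates). Nuclease and starting material changed together, so their parts cannot be told apart. Each deposited list pools the tags of 1 nuclease and gives positions only, with no tag number, so there are no replicates to compare, the depth behind a hotspot is unknown, and intervals on shares are 95% Wilson intervals that cover counting error only. The lists held 69897 DNase I, 59040 Benzonase and 55904 Cyanase hotspots on chromosomes 1 to 19. Whole liver is a mixture of cells, in which fewer cells of a type and less accessible chromatin per cell cannot be told apart.

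Accessible regions far from promoters are often enhancers, where transcription factors hold DNA free of a stable nucleosome and act on genes along the same chromosome. In hepatocytes, the main parenchymal cells of the liver, such sites are bound by combinations of liver-enriched factors, among them the forkhead proteins FOXA, the nuclear receptors HNF4A and NR5A2, the homeodomain factors HNF1 and ONECUT (HNF6), and the C/EBP family of leucine zipper proteins. Kupffer cells are the resident macrophages of the liver sinusoids.

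The sequences of DNase I unique intergenic regions near well known liver genes show what kind of DNA is at issue. For each of Alb (albumin), Cyp7a1 (the rate-limiting enzyme of bile acid synthesis), Tat (tyrosine aminotransferase), Hnf4a and Foxa2, the central 200 bp of the nearest DNase I unique intergenic region within 100 kb of a TSS are given on the plus strand of mm9. Capitals mark matches on either strand to 6 liver factor motifs, TGTTTAC for FOXA, CAAAGTCCA for HNF4A, GTTAATNAT for HNF1, TATTGAT for ONECUT, TTGCNNAA for C/EBP and TCAAGGTCA for NR5A2.
Alb (chr5:90914712-90914911): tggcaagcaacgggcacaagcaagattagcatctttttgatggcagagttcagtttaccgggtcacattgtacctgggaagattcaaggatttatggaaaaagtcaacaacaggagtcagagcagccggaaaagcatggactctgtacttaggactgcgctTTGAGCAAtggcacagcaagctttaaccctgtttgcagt
Cyp7a1 (chr4:6191529-6191728): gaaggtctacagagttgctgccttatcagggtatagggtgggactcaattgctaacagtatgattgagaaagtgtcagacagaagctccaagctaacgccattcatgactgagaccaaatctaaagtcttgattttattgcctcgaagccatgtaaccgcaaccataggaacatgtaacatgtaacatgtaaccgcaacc
Tat (chr8:112588168-112588367): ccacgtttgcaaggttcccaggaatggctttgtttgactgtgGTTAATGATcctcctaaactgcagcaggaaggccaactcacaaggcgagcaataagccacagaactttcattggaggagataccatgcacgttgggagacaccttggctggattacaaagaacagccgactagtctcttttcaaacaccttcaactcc
Hnf4a (chr2:163409915-163410114): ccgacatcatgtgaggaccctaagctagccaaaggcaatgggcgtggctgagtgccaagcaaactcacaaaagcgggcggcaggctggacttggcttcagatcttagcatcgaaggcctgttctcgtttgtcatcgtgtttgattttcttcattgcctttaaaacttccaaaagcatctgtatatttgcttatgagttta
Foxa2 (chr2:147839217-147839416): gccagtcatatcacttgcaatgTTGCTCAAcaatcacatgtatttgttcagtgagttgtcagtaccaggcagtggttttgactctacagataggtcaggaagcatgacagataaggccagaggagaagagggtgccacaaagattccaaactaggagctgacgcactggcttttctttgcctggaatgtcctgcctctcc
The Alb region lay 24.6 kb from an Alb TSS and 4.58 kb from that of the neighbouring Afp gene, and the Cyp7a1 region lay 11.004 kb from its gene. The Tat, Hnf4a and Foxa2 regions were 73.6, 33.9 and 32.1 kb away. Other genes were nearer to the Tat region (Zfp612, 15.1 kb) and to the Hnf4a region (Ttpal, 17.8 kb). Pck1, the gluconeogenic enzyme of the same group of genes, had no such region within 100 kb. The Alb and Foxa2 stretches each held 1 C/EBP match and the Tat stretch 1 HNF1 match, while the Cyp7a1 and Hnf4a stretches held none of the 6 motifs. The regions around them had a GC content between 41.9% (Foxa2) and 50.4% (Hnf4a).

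The regions with the most different liver motifs show the other end of the range. In 5 of the 12203 regions the central 300 bp held 4 different motifs of the 6, and the following 4 were taken by the number of matches and then by position, named by their nearest protein-coding gene, with the same marking and strand.
Enah (chr1:183973411-183973710): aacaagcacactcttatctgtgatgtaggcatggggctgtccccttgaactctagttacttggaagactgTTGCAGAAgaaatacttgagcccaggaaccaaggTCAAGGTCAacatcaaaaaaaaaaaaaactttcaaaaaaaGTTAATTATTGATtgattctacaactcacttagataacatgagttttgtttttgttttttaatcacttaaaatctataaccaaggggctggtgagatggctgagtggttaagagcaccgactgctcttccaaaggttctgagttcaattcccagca
D14Abb1e (chr14:28240532-28240809): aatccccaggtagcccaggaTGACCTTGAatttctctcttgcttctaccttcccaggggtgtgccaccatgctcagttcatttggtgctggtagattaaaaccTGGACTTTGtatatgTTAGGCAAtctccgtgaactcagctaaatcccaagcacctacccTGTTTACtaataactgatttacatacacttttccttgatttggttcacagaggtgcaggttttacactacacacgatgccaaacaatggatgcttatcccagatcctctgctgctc
Gm11035 (chr2:136281049-136281348): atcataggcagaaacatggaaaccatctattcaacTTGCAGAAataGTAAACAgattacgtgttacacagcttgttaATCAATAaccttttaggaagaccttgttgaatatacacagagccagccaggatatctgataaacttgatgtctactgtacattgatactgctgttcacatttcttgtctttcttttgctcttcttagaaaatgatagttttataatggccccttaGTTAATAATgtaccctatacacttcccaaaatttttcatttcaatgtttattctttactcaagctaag
Nr3c2 (chr8:79037547-79037846): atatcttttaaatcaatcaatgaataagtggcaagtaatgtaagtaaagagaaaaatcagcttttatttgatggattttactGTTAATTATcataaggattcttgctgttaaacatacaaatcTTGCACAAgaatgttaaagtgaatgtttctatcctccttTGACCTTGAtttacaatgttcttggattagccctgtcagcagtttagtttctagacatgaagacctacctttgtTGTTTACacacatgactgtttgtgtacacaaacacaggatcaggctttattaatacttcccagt
The Enah, D14Abb1e and Gm11035 regions were 23.2, 1.22 and 10.5 kb from the nearest protein-coding TSS, while the Nr3c2 region was 385 kb away and 114 kb from the nearest Benzonase or Cyanase hotspot. The HNF1 and ONECUT letters can share bases, and do so in the Enah region, where their matches form 1 run of capitals.

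The DNase I unique intergenic regions were poor in G and C. Their mean GC content was 42.2% ± 5.19 (SD across 12203 regions), against 47.3% ± 5.32 in the 12127 intergenic regions that held hotspots of all 3 nucleases and 52.9% ± 5.39 in the 10694 intergenic regions with Benzonase or Cyanase hotspots and no DNase I. DNase I unique regions inside gene bodies had a similar mean, 42.7% ± 5.19 (n = 12225). The difference to the regions of all 3 nucleases was -5.08 percentage points (95% interval over regions -5.21 to -4.94), and it was negative on 19 of 19 chromosomes, from -6.03 to -3.89. The classes overlapped widely, as the middle 50% of the DNase I unique regions ran from 38.6% to 45.8% and that of the regions of all 3 from 43.7% to 50.7%.

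Against their own surroundings the DNase I unique intergenic regions hardly stood out. The 5 kb on each side had a mean GC content of 42.6%, and the difference of the regions to them was -0.406 percentage points (SD 4.17), and 45.6% of the regions were above their own flanks (95% interval 44.8% to 46.5%). Intergenic regions of all 3 nucleases were 2.54 points above their flanks, with 73.5% of them higher, and those without DNase I 9.73 points above, with 95.6% higher. In the central 150 bp the DNase I unique regions had 42.6% GC, and their difference to the flanks came to -0.0301 points. The plot of GC content by distance shows a nearly flat line for the DNase I unique regions, with a shallow dip on both sides of the centre, where the other intergenic classes rise to a peak.

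**Figure D1:**
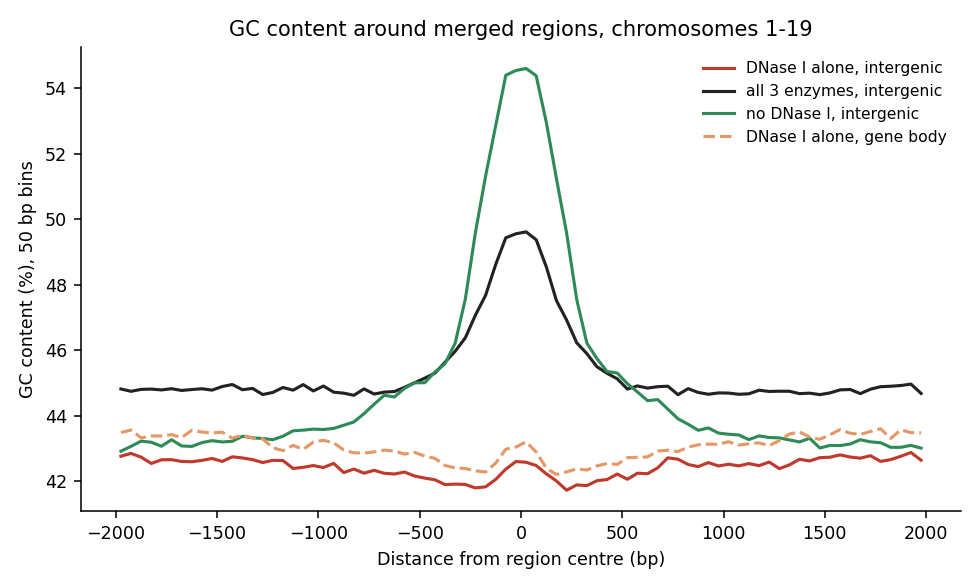
Mean GC content (%) in 50 bp bins against distance from the region centre (bp) for 4 classes of merged regions on chromosomes 1 to 19; lines are means over regions. DNase I unique intergenic regions stay near 42.6% at the centre, while intergenic regions of all 3 nucleases reach 49.6% and those without DNase I 54.6%.

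CpG islands, the GC-rich and CpG-rich stretches typical of promoters, were rare. Only 25 of the 12203 regions (0.205%, 0.139% to 0.302%) overlapped one, against 4.91% of the intergenic regions of all 3 nucleases and 4.39% of those without DNase I. The share was 1.22% (1.05% to 1.42%) where only hotspots overlapping by 50% of both were joined. Unbroken runs of at least 10 A, or of at least 10 T, occurred in the central windows of 8.39% (7.91% to 8.90%) of the DNase I unique regions, against 4.87% and 1.08% in these classes. Windows with at least 25% of their length in words of 16 bases that recur 10 or more times on chromosome 19 were counted on the other chromosomes only. They were 2.59% of 11874 DNase I unique regions, compared with 12.4% of their own flanking windows. The other classes also had lower shares than their flanks, to unlike degrees. The shares went from 11.6% in flanks to 1.31% in the regions of all 3 and from 13.2% to 4.83% in those without DNase I. In the DNase I unique regions of gene bodies they went from 8.53% to 1.71%.

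A group on chromosome 12 went against this composition. All 5 DNase I unique intergenic regions with a GC content above 65% lay between 18 and 22 Mb of chromosome 12, with values from 69.1% to 73.1% in surroundings of 44.8% to 46.2%. They resembled each other in sequence, since 10 of 10 pairs aligned, over 386 to 545 bp, with identities from 76.7% to 97.7% (median 88.3%). These regions were singled out after their values were seen, and the central 150 bp of the first pair along the chromosome are given on the plus strand of mm9 because their likeness is visible by eye.
5730507C01Rik (chr12:18616768-18616917): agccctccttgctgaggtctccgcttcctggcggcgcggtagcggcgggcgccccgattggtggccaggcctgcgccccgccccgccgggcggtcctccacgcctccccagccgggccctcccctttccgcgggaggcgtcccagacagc
Gm10479 (chr12:20620729-20620878): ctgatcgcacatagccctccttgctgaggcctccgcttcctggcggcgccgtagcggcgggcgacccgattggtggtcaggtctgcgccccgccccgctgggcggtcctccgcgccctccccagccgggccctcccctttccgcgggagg
Neither stretch held any of the 6 liver motifs. The same 4 Mb held 15 DNase I unique intergenic regions in all, 5 regions of all 3 nucleases and 49 without DNase I. For Benzonase and Cyanase the study counts its tags as uniquely aligning, and for DNase I it does not say.

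Liver factor motifs were concentrated in the DNase I unique intergenic regions. At least 1 of the 6 motifs was present in the central 300 bp of 5500 regions (45.1%, 44.2% to 46.0%), while windows of the same length centred 2 kb away held one in 22.7%. The regions of all 3 nucleases had 36.4% against 20.3% in their flanks, and the regions without DNase I 13.7% against 22.8%, so that in the latter the motifs were less frequent inside than beside the region. These shares were not matched for GC content, which differed between the classes. DNase I unique regions in gene bodies had a like concentration, with ONECUT letters in 10.7% against 3.71% in their flanks, FOXA in 9.64% against 4.66%, C/EBP in 23.9% against 12.3% and NR5A2 in 1.97% against 0.814%. Different motifs occurred together in 938 DNase I unique regions with 2, in 81 with 3 and in 5 with 4 of the 6.

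Each of the 6 motifs was more frequent in the DNase I unique regions than beside them. C/EBP was the most frequent, in 26.1% of windows against 13.6% in the flanks, and HNF4A had the largest ratio, 2.11% against 0.443%. FOXA matches were in 9.79% against 4.46%, HNF1 in 2.70% against 0.963% and NR5A2 in 1.55% against 0.774%. Over all merged regions of the series, windows with the letters made up 17.2% for C/EBP, 1.56% for HNF4A, 6.63% for FOXA, 1.79% for HNF1 and 1.13% for NR5A2. A match is a run of letters and not a measured binding event.

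Of the 6 liver motifs, ONECUT showed the widest gap to the regions of all 3 nucleases. Its letters were in 1451 DNase I unique intergenic windows (11.9%, 11.3% to 12.5%) and in 4.40% of their flanks, against 6.02% of the regions of all 3 nucleases, 1.90% of those without DNase I and 5.59% of all merged regions. The difference to the regions of all 3 was 5.87 percentage points (95% Newcombe interval 5.16 to 6.59), in the same direction on 19 of 19 chromosomes. Its letters are rich in A and T, and when windows of like GC content were compared the interval of the difference included 0 in each of 5 bins from 30% to 55%. Among windows with a GC content of 40% to 45%, 10.99% of the DNase I unique and 9.92% of the regions of all 3 held it (difference 1.07, interval -0.549 to 2.61), at 35% to 40% the shares were 17.4% and 14.6% (2.79, -0.175 to 5.50), and at 45% to 50% they were 6.24% and 6.27% (-0.0309, -1.19 to 1.16). In the bin of 30% to 35%, with 109 windows of all 3, they were 23.3% and 15.6% (7.71, -0.645 to 13.97).

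HNF1 letters were less frequent than in the regions of all 3 once windows of like GC content were compared. At 40% to 45% GC, HNF1 letters were in 2.43% of the DNase I unique windows and 4.38% of the windows of all 3 (difference -1.95, interval -2.99 to -1.01), whereas without regard to GC content the shares were 2.70% and 2.88%. FOXA was in 10.4% and 11.2% at 40% to 45% GC (-0.806, -2.46 to 0.779), against 9.79% and 8.39% over all windows. The interval of its difference included 0 in each of the 5 bins from 30% to 55%, so no direction was set at like GC content. NR5A2 letters were in 1.61% and 1.02% at 40% to 45% GC (0.599, -0.0203 to 1.15) and in 1.79% and 1.17% at 45% to 50% (0.620, 0.0407 to 1.24). C/EBP letters were in 27.3% and 29.3% at 40% to 45% GC (-2.03, -4.39 to 0.302). At 45% to 50% they were in 22.1% and 24.2% (-2.18, -4.21 to -0.139), and at 30% to 35% the difference was 6.09 (-3.34 to 14.1). HNF4A letters were in 2.34% and 3.05% at 40% to 45% GC (-0.708, -1.62 to 0.111). At 45% to 50% they were in 2.09% and 3.12% (-1.03, -1.79 to -0.255).

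SP1 and CTCF letters were not concentrated in the DNase I unique intergenic regions. SP1 letters (GGGCGG), typical of promoters with CpG islands, were in 3.09% of windows and 3.34% of flanks, against 10.3% of the regions of all 3 and 12.2% of those without DNase I. CTCF letters (AGGGGGC), from the core of the motif of the factor that bounds chromatin loops, were in 2.25% of windows and 2.52% of flanks, against 4.70% and 8.47%. At 40% to 45% GC the DNase I unique regions and the regions of all 3 had 2.31% and 2.26% for SP1 and 1.76% and 1.71% for CTCF. Other motifs with more G and C than A and T went both ways. Letters of NRF1 (GCGCANGCG) were in 0.148% (0.0933% to 0.233%) of windows and 0.205% of flanks. Those of SREBP (TCACCCCAC) were in 0.221% (0.152% to 0.322%) and 0.295%. The ETS letters (CCGGAA) were more frequent inside, in 3.65% (3.34% to 4.00%) against 2.61% in the flanks. So was the E-box of MyoD (CAGCTG), in 14.1% (13.5% to 14.8%) against 11.2%. In the regions of all 3 the ETS and E-box letters were in 6.13% and 20.8%. Letters of AP-1 (TGANTCA) were in 14.0% against 9.22% in the flanks, and those of GATA factors (AGATAAG) in 6.44% against 4.33%. The octamer letters of POU factors (ATGCAAAT) were in 2.27% of windows and 2.39% of flanks. In all, 15 motifs were searched on both strands.

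**Figure D2:**
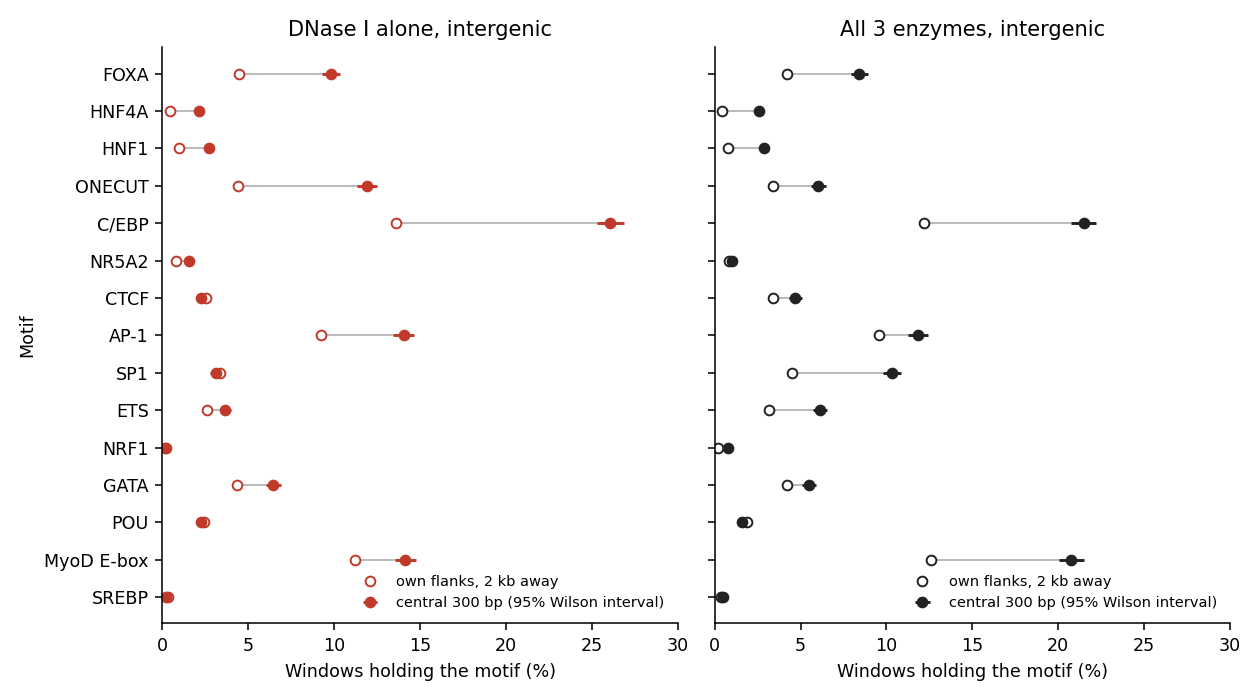
Share of 300 bp windows (%) that hold each of 15 motifs, filled circles for the region centre with 95% Wilson intervals and open circles for the regions' own flanks 2 kb away; left, DNase I unique intergenic regions, right, intergenic regions of all 3 nucleases. On the left ONECUT stands at 11.9% against 4.40% in the flanks and SP1 at 3.09% against 3.34%.

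The liver motifs gathered at the middle of the regions. Within 100 bp of the centre of the DNase I unique intergenic regions, ONECUT letters occurred 5.62 times per 100 regions per 100 bp, which was 3.49 times their frequency in the outer 500 bp on each side of the 2 kb plotted. The same ratio was 5.77 for HNF4A, 2.92 for HNF1, 2.52 for FOXA, 2.45 for NR5A2 and 2.41 for C/EBP. In the regions of all 3 nucleases the ratio was lower for ONECUT (2.06) and for NR5A2 (1.11) and higher for HNF4A (7.08) and HNF1 (4.195).

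**Figure D3:**
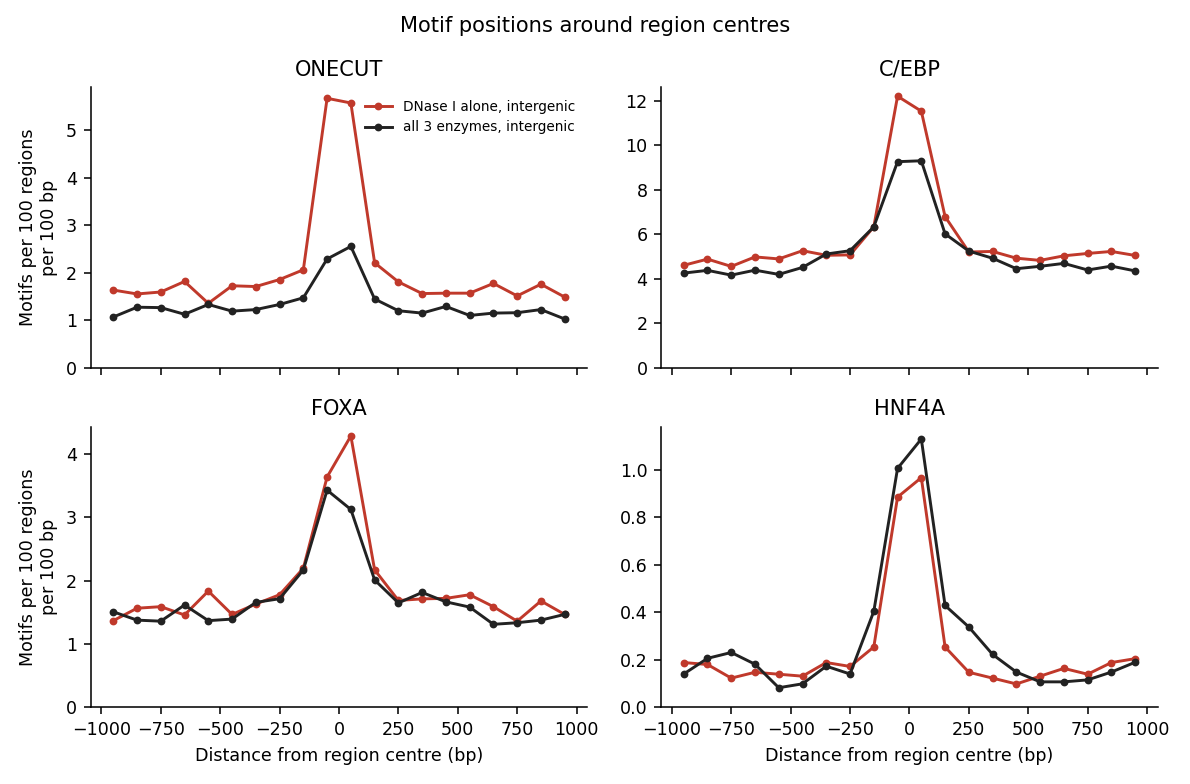
Number of motif matches per 100 regions per 100 bp against distance from the region centre (bp), in 100 bp bins, for 4 motifs; red, DNase I unique intergenic regions, black, intergenic regions of all 3 nucleases. In both classes the 4 motifs peak in the central 200 bp, and the ONECUT peak of the DNase I unique regions (5.62) stands above that of the regions of all 3 (2.42).

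A count of all 32896 words of 8 bases, chosen without a list of factors, brought up related letters. These words were picked for their excess in the same windows, so their values are a description. The word with the largest ratio of windows to flanks after adding 20 to both counts, AATCAATA, contains the ONECUT letters on the other strand and was in 6.94% of the DNase I unique windows and 1.52% of their flanks, with 2.85% and 1.19% in the regions of all 3 and 0.514% and 1.67% in those without DNase I. Among the first 25 words, 10 contained ATCAAT and 5 contained TTGC. TTACGCAA, a C/EBP type word, was rare but had 0.4999% against 0.0328% in the flanks, and AAAGGTCA, a nuclear receptor type word, had 5.48% against 1.58%. The 25 words shared 6 with the first 25 of the regions of all 3 nucleases and 0 with those of the regions without DNase I, and their letters were 31.5% G or C on average, against 78% and 82.5% in those 2 lists.

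The DNase I unique intergenic regions were narrow, with a median width of 547 bp (middle 50% from 451 to 627 bp, range 251 to 2647 bp), against 823 bp for the regions of all 3 nucleases, which are unions of several hotspots, and 433 bp for those without DNase I. Each DNase I unique intergenic region held 1 hotspot. Among the widest were regions near Cav2 (caveolin 2, 2095 bp), Aox4 (an aldehyde oxidase, 2036 bp), Mbd2 (a methyl-CpG binding protein, 2022 bp) and Aadat (aminoadipate aminotransferase, 1872 bp). Width went with motif content. In the 3048 widest regions (628 bp and more) 50.6% (48.8% to 52.4%) held at least 1 liver motif in the same central 300 bp and 15.3% held ONECUT letters. In the 3077 narrowest (up to 451 bp) the shares were 37.5% (35.8% to 39.2%) and 8.09%, and in regions under 300 bp the window reached beyond the region. Mean GC content of the whole regions was 41.4% in the widest and 42.6% in the narrowest, and whether composition had a part was not tested.

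DNase I unique intergenic regions lay farther from genes than the regions of all 3 nucleases. Their median distance to the nearest protein-coding TSS was 49.4 kb (middle 50% from 15.3 to 160 kb), against 31.1 kb for the regions of all 3 and 72.9 kb for those without DNase I. Of the intergenic regions with a DNase I hotspot, DNase I unique ones made up 39.7% at 1 to 10 kb from a TSS, 42.0% at 10 to 50 kb, 44.0% at 50 to 100 kb, 54.4% at 100 to 500 kb and 72.9% (70.1% to 75.5%) beyond 500 kb. That share leaves out the regions without DNase I, which numbered 1531, 3018, 1442, 3474 and 1229 in the same bins. Beyond 500 kb there were 760 DNase I unique regions (6.23%), 203 of all 3 (1.67%) and 1229 without DNase I (11.5%). Composition of the DNase I unique regions changed along the same axis, with a mean GC content of 43.4% at 1 to 10 kb and 38.1% beyond 500 kb, and so did the ONECUT letters, from 8.77% to 16.1% of windows. HNF4A letters stayed between 1.92% and 2.50% in the 5 distance bins.

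**Figure D4:**
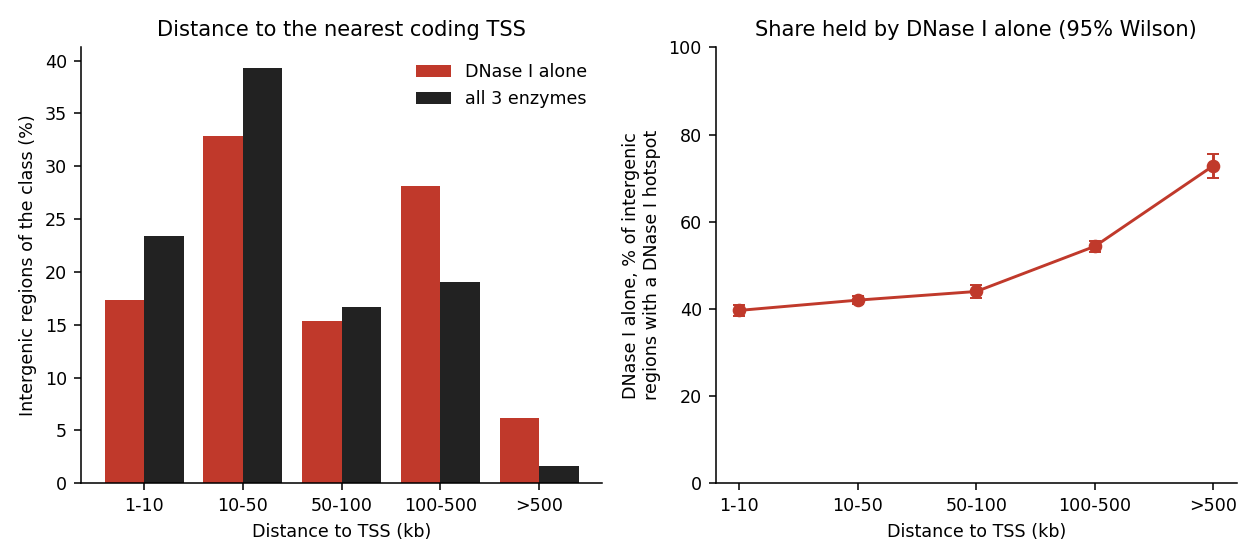
Left, share (%) of the DNase I unique intergenic regions (red bars) and of the intergenic regions of all 3 nucleases (black bars) in 5 bins of distance to the nearest protein-coding TSS (kb). Right, DNase I unique regions as a share (%) of intergenic regions with a DNase I hotspot in the same bins, with 95% Wilson intervals, at 39.7% in the nearest and 72.9% in the farthest bin.

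Many DNase I unique intergenic regions had other accessible chromatin nearby. The nearest region of all 3 nucleases was within 10 kb for 4466 of them (36.6%, 35.7% to 37.5%), at a median of 20.3 kb, and within 10 kb for 26.0% of the regions without DNase I. That share was higher, 46.6%, for intergenic regions of DNase I and 1 partner. For DNase I unique regions in gene bodies it was 49.8% and at promoters 68.8%. The nearest Benzonase or Cyanase hotspot of any kind was at a median of 10.6 kb and within 1 kb of 1460 regions (11.96%). Near the edges of the rule, the DNase I region closest to a partner hotspot, near Pdgfc, was 0 bp away, while outside the rule regions near Fggy and Nt5c2 shared 1 and 12 bp with one. Toward genes, the regions next to Akr1c6 (a liver hydroxysteroid dehydrogenase) and Prox1 lay just inside at 1003 and 1006 bp from a TSS, and those next to Prdx1 and Gemin5 just outside at 996 and 995 bp. Altogether 38 regions left out shared fewer than 100 bp with a partner hotspot.

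Between whole chromosomes the density of DNase I unique regions varied less than that of the regions of all 3. Regions without DNase I were left out of this comparison. There were 8.46 DNase I unique regions per Mb of intergenic sequence, from 6.96 on chromosome 7 to 10.8 on chromosome 19 (1.56-fold), against 8.41 per Mb and a range of 5.96 on chromosome 14 to 13.3 on chromosome 19 (2.24-fold) for the regions of all 3. The window of 1 Mb with most, 26, was on chromosome 13 at 112 to 113 Mb, beside Map3k1 (a kinase of the stress pathway to JNK) and Ankrd55, and it held 21 regions of all 3. A window on chromosome 11 at 111 to 112 Mb, with no protein-coding gene in it and Kcnj2 (an inward rectifier potassium channel) nearest, held 21 DNase I unique regions and 4 of all 3. The next windows lay beside Gm10063 and 6430573F11Rik (21 on chromosome 8), Ly86 and Rreb1 (20 on chromosome 13 at 37 to 38 Mb) and Pcsk1 and Ell2 (20 on chromosome 13 at 75 to 76 Mb). Windows with at least 1 such region held 5 at the median, and 310 of 2232 held 10 or more.

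Noncoding genes, which the rule does not remove, were overlapped by 652 DNase I unique intergenic regions (5.34%, 4.96% to 5.76%), a lower share than the 8.35% of the regions of all 3. Long intergenic RNAs took 295 and processed transcripts 277. Pvt1, the long noncoding RNA next to Myc, held 13 DNase I unique regions and 20 of all 3, and 2610307P16Rik held 9 and 11, while Gm12718 held 7 and 1. Of 1468 annotated miRNA genes 6 were overlapped, among them Mirlet7b, a member of the let-7 family that lies upstream of Ppara.

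Genes of liver function had DNase I unique intergenic regions around them, although regions of all 3 nucleases were more numerous there. Of 100 genes in 5 lists of liver genes, 80 had at least 1 within 100 kb of a TSS, against 56.1% of all 21281 protein-coding genes, and the lists together had 201 DNase I unique regions and 438 of all 3, so that 31.5% (28.0% to 35.2%) were DNase I unique. Within 100 kb of any protein-coding TSS that share was 45.4%. Plasma protein genes had the lowest share, 24.2% (23 against 72 regions), with 13 of 22 genes near at least 1. Liver metabolism genes had 27.7% (39 against 102, 17 of 22 genes), liver transcription factor genes 29.5% (52 against 124, 19 of 21) and clock and hormone response genes 33.03% (36 against 73, 16 of 19).

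Genes of xenobiotic metabolism were the richest in DNase I unique intergenic regions among the liver lists. They had 53 against 70 regions of all 3 (43.1%, 34.7% to 51.9%), 15 of 16 genes had at least 1, and 9 of 16 had 3 or more, against 14.4% of all protein-coding genes. Cyp2d9 had 9 and 7 regions of all 3, Cyp2a5 had 6 and 7, and Ugt2b1, a glucuronosyltransferase, had 6 and 3. All 3 genes sit in clusters of similar copies, so a region near one can also be near its relatives.

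Among regulators, Ppara, the receptor of the fasting response, had 6 DNase I unique regions and 10 of all 3, Cebpb had 5 and 13 and Foxa2 had 5 and 10. Socs2, the growth hormone feedback inhibitor, had 6 and 5, Klf15 had 4 and 13 and Bhlhe40, a clock repressor, had 4 and 5. For metabolism the leading genes were Slc10a1 (the bile acid uptake transporter NTCP), with 5 and 6, and G6pc (glucose-6-phosphatase), with 3 and 7. In the plasma protein list Apob and Afp had 4 each, beside 9 and 8 of all 3, and Apoa2 had 2 beside 3. Each of these genes except Socs2 thus had more regions of all 3 than DNase I unique ones.

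Kupffer cell genes showed the opposite balance of DNase I unique regions to regions of all 3. All 8 genes of the list on chromosomes 1 to 19 had at least 1 DNase I unique intergenic region within 100 kb, and the list had 18 of them against 4 regions of all 3 (81.8%, 61.5% to 92.7%). Clec4f, a lectin of Kupffer cells, had 4 and 1, Cd5l, a secreted scavenger receptor family protein, had 3 and 0, and Emr1, the macrophage antigen F4/80, had 3 and 1. Marco, a scavenger receptor, had 2 and 0, C1qa, a chain of complement C1q, had 2 and 1, Cd163, the haemoglobin scavenger receptor, had 2 and 1, and Csf1r and Timd4 had 1 and 0 each. The same neighbourhoods also held 12 Benzonase or Cyanase regions without DNase I, 3 near Clec4f, 2 each near Marco, Cd163 and Timd4, 1 each near Cd5l, Csf1r and C1qa and 0 near Emr1. Timd4 thus had more of these than DNase I unique regions, and Marco, Cd163 and Csf1r had as many. Of the regions of all these classes 52.9% (36.7% to 68.5%) were DNase I unique, against 33.9% within 100 kb of any protein-coding TSS and 27.1% in the liver lists. The 18 regions were not low in GC, with a median of 47.8% (36.7% to 54.6%), and 15 of 18 lay above the mean of all DNase I unique intergenic regions. They were 5.90 to 70.7 kb from a TSS (median 20.6 kb) and 0.710 to 76.6 kb from the nearest Benzonase or Cyanase hotspot (median 17.3 kb). The balance depended on the distance, as 250 kb around the same genes gave 55.1% (41.3% to 68.1%).

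The central 200 bp of the region nearest to Clec4f and to Cd5l are shown on the plus strand of mm9, with the same marking. They were picked after the counts were seen.
Clec4f (chr6:83587787-83587986): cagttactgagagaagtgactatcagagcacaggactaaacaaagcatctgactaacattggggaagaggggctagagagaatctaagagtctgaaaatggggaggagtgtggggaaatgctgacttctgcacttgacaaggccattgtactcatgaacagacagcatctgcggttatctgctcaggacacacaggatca
Cd5l (chr3:87155189-87155388): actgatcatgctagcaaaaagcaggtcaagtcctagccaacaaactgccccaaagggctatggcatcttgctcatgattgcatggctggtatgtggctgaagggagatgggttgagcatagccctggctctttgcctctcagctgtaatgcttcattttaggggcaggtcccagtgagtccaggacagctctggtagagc
Neither stretch held one of the 6 liver motifs. The Clec4f region lay 17.97 kb from a TSS of the gene and the Cd5l region 6.36 kb, with 59.5 kb from the latter to the nearest Benzonase or Cyanase hotspot.

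The start sites of the Kupffer cell genes lay mostly in DNase I hotspots. The gene lists were chosen with earlier results of these data known, and the start sites were compared with the same hotspot lists. The start site counts are therefore a description and not independent support for the balance of regions near these genes. A TSS of 7 of the 8 genes lay in a DNase I hotspot (48.1% of all protein-coding genes had one), against 1 of 8 in a Benzonase and 2 of 8 in a Cyanase hotspot. For 4 of the 8, Cd5l, Marco, Csf1r and Timd4, DNase I hotspots were the only ones at a TSS, which held for 0.836% of all protein-coding genes and for 1 of the 100 genes of the liver lists. The endothelial and stellate lists did not share it, as a TSS lay in a DNase I hotspot for 1 of 9 and 2 of 9 genes and in a Benzonase hotspot for 6 of 9 in both. Of the markers checked, 6 of 6 for hepatocytes had a TSS in a DNase I hotspot, and 5 of 6 for Kupffer cells, Vsig4 being off chromosomes 1 to 19. The counts were 0 of 5 for sinusoidal endothelium, 0 of 4 for stellate cells, 1 of 4 for bile duct and 0 of 9 for tissues other than liver.

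In the remaining lists the DNase I unique share lay between these ends. It was 63.6% (43.0% to 80.3%) for stellate cell genes, 50% (33.2% to 66.8%) for bile duct genes, 45% (30.7% to 60.2%) for sinusoidal endothelial genes and 47.6% (35.8% to 59.7%) for genes of other tissues. Within 100 kb of any protein-coding TSS it was 45.4%. With the regions without DNase I counted too, the shares were 36.8% (23.4% to 52.7%), 42.9% (28.0% to 59.1%), 36% (24.1% to 49.9%) and 32.3% (23.6% to 42.3%). The same share near any protein-coding TSS was 33.9%. Sox9, the bile duct transcription factor, had 6 DNase I unique regions and 7 of all 3, and Spp1 (osteopontin) had 4 and 4. Gata4 and Kdr, a VEGF receptor, had 5 each, with 4 and 3 of all 3. Hgf and Lrat, the retinol-storing enzyme of stellate cells, had 3 and 1 each. Genes that liver does not use had them as well, with 4 near Cpa1 (pancreatic carboxypeptidase) and 4 near Sox2.

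**Figure D5:**
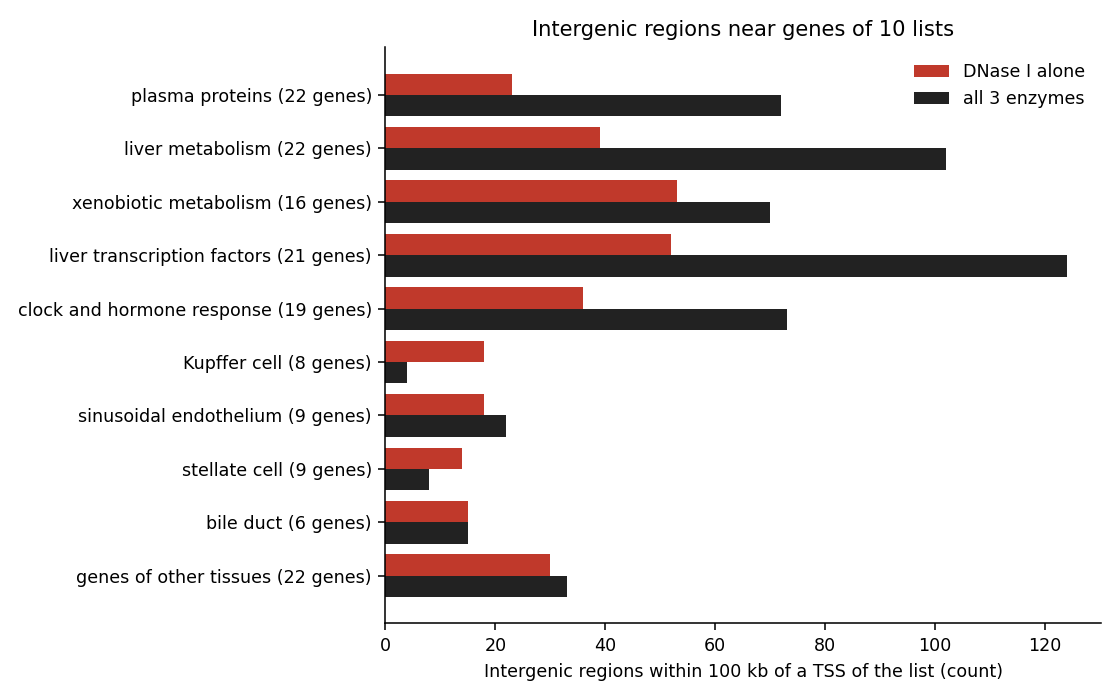
Number of distinct DNase I unique intergenic regions (red) and intergenic regions of all 3 nucleases (black) within 100 kb of a protein-coding TSS of the genes in each of 10 lists. The Kupffer cell list has 18 against 4, and the plasma protein list 23 against 72.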

How the data were processed

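Accessible chromatin was digested, sequenced and aligned to mm9 by the authors with Eland or Bowtie, and tags were pooled per nuclease. The study describes hotspots called with no false discoveries allowed (rate 0%) and a cut on tag density at its mode. The 3 deposited lists, per the file headers, hold positions only (chromosome, start, end), so no count, score or density was available, and 0 columns belonged to samples of other series. They hold 72286 DNase I, 60910 Benzonase and 57675 Cyanase hotspots in all, more than the study reports for each nuclease. The reason is not known, so counts of unique regions here are not those of the study. The members, gene lists and motifs were chosen with earlier results of these data known.

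Hotspots overlapping by 1 bp or more were merged, which gave 94491 regions on all chromosomes, as did bedtools 2.31.1, and classed with GENCODE M1. GC content, CpG islands (minimum length 200 bp, more than 50% GC, CpG ratio above 0.6) and motifs were read from the unmasked genome. Central windows of 300 bp were compared with windows centred 2 kb to each side. A window counted as repeated when at least 25% of it lay in words of 16 bases found 10 or more times on chromosome 19. Windows on chromosome 19 itself were left out of that count. Word ratios had 20 added to both counts. Identities came from blastn 2.17.0. Named genes were the 3 of each list with most members, and the regions named were those set by rule unless said to be chosen later, and a few of them are not reported here. Of 156 listed genes, 2 (Tsc22d3 and Vsig4) were not on chromosomes 1 to 19. With 1 pooled list per nuclease no test was run, and shares carry Wilson intervals that cover counting error only. Printed positions count from 1. Merging, classes, islands, motif and distance counts were tested on simulated data. Python 3.11.15, numpy 2.4.6, pandas 2.3.3, scipy 1.17.1, numba 0.67.0 and matplotlib 3.10.9 were used.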

Additional observations from a re-analysis of the deposited data

Results flagged for a closer look

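Chromosomes X and Y, which the definition of the regions leaves out, also held intergenic regions with a DNase I hotspot alone. Chromosome X had 748, at 39.5% ± 5.07 GC (mean ± SD) and ONECUT letters in 13.1% (10.9% to 15.7%) of central windows, beside 294 regions of all 3 nucleases. Chromosome Y had 41, at 38.2% ± 4.62 GC and ONECUT letters in 2.44% (0.432% to 12.6%), beside 39 regions of all 3. No control list without nuclease was used here.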

How the results depend on the processing

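Results were recomputed with other settings, and 62 of 94 values stayed within their interval or, for counts, within 1.5 times. None changed sign. Leaving out hotspots under the lower quartile of width gave 7969 regions, a median width of 626 bp and ONECUT letters in 12.6%. A required overlap of 50% in each hotspot moved the GC difference to the regions of all 3 to -4.54 points, that to the flanks to -0.117, the island share to 1.22% (from 0.205%), the median TSS distance to 47.3 kb and the median width to 557 bp. With Benzonase as the only partner these were -4.74 and -0.287 points, 551 bp, and 39.7% within 10 kb of a shared region, and with Cyanase as the only partner -4.66 and -0.195 points, 553 bp, 39.3%, and an island share of 0.352%. Over 5 kb from every TSS, the difference to the flanks was -0.219 points, 32.8% were within 10 kb of a region of all 3, and the median TSS distance was 60.7 kb. With all annotated transcripts these last were 35.6% and 51.6 kb, and 0% overlapped a noncoding gene, as that definition removes them. Joining hotspots within 150 bp gave 35.4% within 10 kb. The central 150 bp gave GC differences of -7.00 and -0.0301 points and FOXA letters in 6.10%. Windows of 40% to 45% GC gave 10.4% for FOXA and 10.99% for ONECUT. Islands of at least 500 bp were overlapped by 0.0656%. Within 50 kb in place of 100 kb of the listed genes there were 168 in place of 294. The Kupffer cell share was 55.1% at 250 kb. The ONECUT and Kupffer cell alternatives were chosen after seeing the data. ONECUT letters were more frequent than in the regions of all 3 under each of the 7 other definitions of the regions. Depth limits every count, since tag numbers per hotspot are unknown and a region near the calling threshold can be listed for 1 nuclease and missed for another. No paired analysis was possible because each nuclease has 1 pooled list, no result comes from a test, and single samples could not be left out.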
